A study of Homo sapiens with 6 samples.

Results

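The 10 genes described here restrain or tune mTORC1, and were measured in HDQ-P1 cells exposed to Y-320. They are SESN1, SESN2, SESN3, CASTOR1, RRAGD, FLCN, DDIT4, DEPTOR, EIF4EBP1 and EIF4EBP2, chosen by name through their Ensembl identifiers, 10 of the 40295 identifiers in the table. HDQ-P1 is a line of human cancer cells in established culture, and Y-320 is a small molecule tested in the study as an enhancer of readthrough at premature stop codons. Libraries made from total RNA were sequenced, 3 of cells given 1 µM Y-320 for 48 h and 3 of untreated cells. No solvent control is described for the untreated cells. All were grown in the same serum-containing medium. The labels do not say whether replicates came from separate cultures, so p-values measure only the spread between these libraries, which may be technical.

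mTORC1 is the protein kinase complex that couples growth to nutrients, growth factors and energy. Amino acids reach it on the lysosome through the Rag GTPases, on which sestrins, CASTOR1 and folliculin act, while growth factors and energy reach it through the TSC complex, on which DDIT4 acts. Active mTORC1 phosphorylates the 4E-BP proteins, which otherwise hold the cap-binding protein eIF4E. SESN2 and DDIT4 are well known stress-induced genes, and both have been described as targets of ATF4.

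Of the 10 genes, 4 were higher with Y-320 (SESN2, RRAGD, EIF4EBP1 and DDIT4), 2 were lower (SESN1 and SESN3) and 4 did not pass the threshold (CASTOR1, FLCN, DEPTOR and EIF4EBP2). The threshold was an adjusted p of 0.05 in edgeR's quasi-likelihood model, with Benjamini-Hochberg adjustment over all 16580 genes tested. All 10 genes passed the filter on low counts. By the same rule, 26.2% of all genes tested were higher with Y-320, and 25.4% lower. Treated libraries lay wholly above untreated libraries for 4 of the 10 genes, against 29.8% of all genes tested, and wholly below them for 2, against 29.4%. An increase of at least 1 log2 unit past the threshold was found for SESN2 alone among the 10, and for 2.43% of all genes tested. The median log2 fold change of the 10 genes was 0.02, and that of all genes tested was 0.00.

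**Figure D1:**
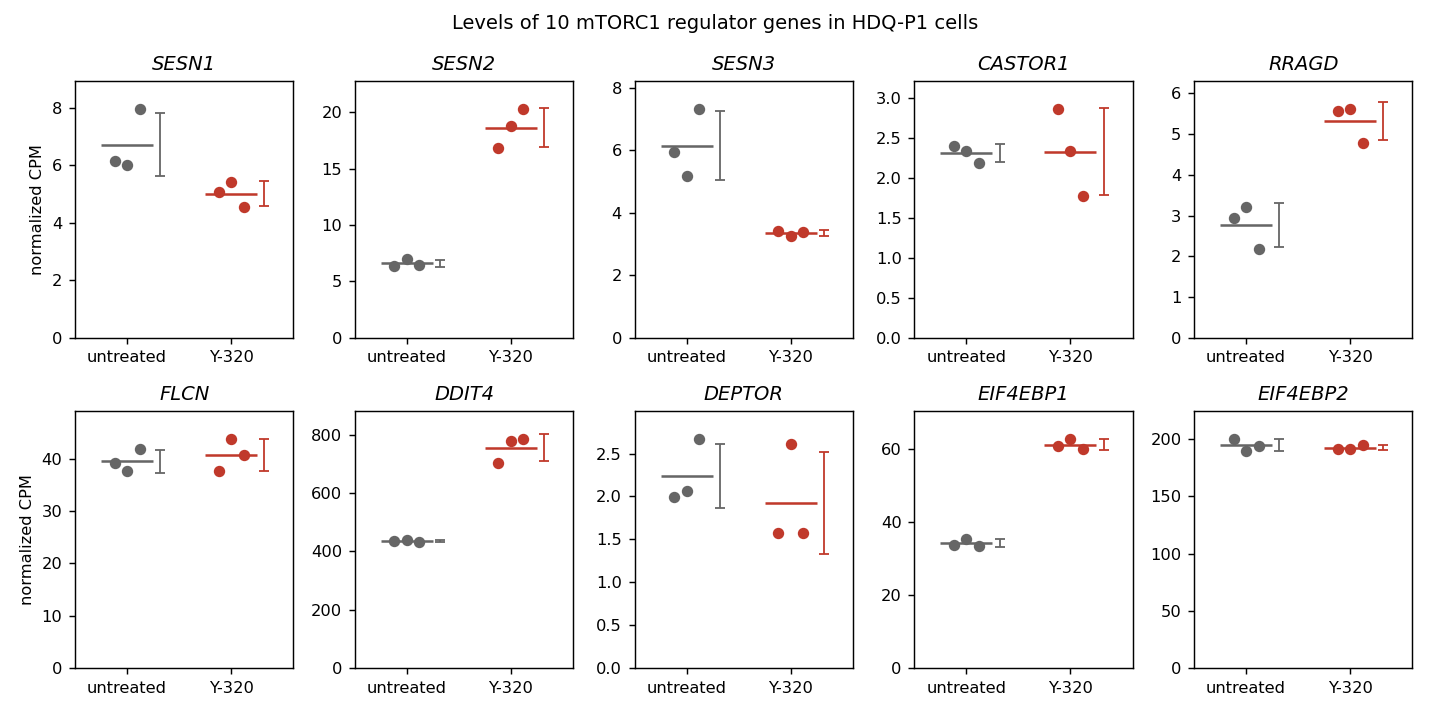
Normalized CPM (counts scaled by TMM to a common library total) of each of the 10 genes on a linear axis from 0, with 1 point for each of 3 untreated and 3 Y-320 libraries, a horizontal line at the mean and a bar of 1 SD. The groups separate for SESN1, SESN2, SESN3, RRAGD, DDIT4 and EIF4EBP1 and overlap for CASTOR1, FLCN, DEPTOR and EIF4EBP2.

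Depth was 21045401 to 22740535 estimated counts per library, and 1 count was worth 0.0438 to 0.0480 CPM. The epithelial markers EPCAM, CDH1, KRT8, KRT18, KRT19 and CLDN4 were all present, summing to 7497 to 7815 CPM in untreated and 4747 to 4787 CPM in Y-320 libraries. Within this sum EPCAM and CLDN4 rose (log2 fold changes 0.38 and 0.23) while KRT8, KRT18, KRT19 and CDH1 fell (-1.02, -0.86, -0.62 and -0.11). Of 6 leukocyte markers, 5 had a mean under 1 CPM; the sum was 37.4 to 38.9 CPM untreated and 68.1 to 74.4 CPM with Y-320, most of it from CD68, which encodes a lysosomal protein. Of 5 endothelial markers, 3 had a mean under 1 CPM, and the sum was 18.1 to 19.6 CPM untreated and 15.3 to 18.8 CPM with Y-320, with opposite changes of PECAM1 (1.22, edgeR adjusted p = 1.10e-04) and CDH5 (-1.29, edgeR adjusted p = 5.91e-07). The 6 fibroblast markers summed to 201 to 241 CPM untreated and 112 to 132 CPM with Y-320, and 2 of them had a mean under 1 CPM. In bulk RNA, fewer cells of a type and less RNA per cell cannot be told apart, and the part of these marker shifts in the results for the 10 genes was not tested.

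Per kilobase of merged exons, the genes differed widely in level. In untreated cells DDIT4 was the most abundant at 205 ± 1.57 CPM per kb (SD, n = 3), followed by EIF4EBP1 at 38.9 ± 1.29 and EIF4EBP2 at 26.0 ± 0.693 CPM per kb. FLCN came next at 4.04 ± 0.221 CPM per kb and SESN2 at 1.91 ± 0.0955 CPM per kb. SESN1 (0.922 ± 0.151), DEPTOR (0.854 ± 0.143) and CASTOR1 (0.841 ± 0.0411 CPM per kb) lay within each other's spread, as did SESN3 (0.582 ± 0.104) and RRAGD (0.545 ± 0.106 CPM per kb). With Y-320 SESN2 stood at 5.39 ± 0.503 and FLCN at 4.16 ± 0.318 CPM per kb, and RRAGD, the lowest of the untreated levels, at 1.05 ± 0.0921 CPM per kb. The order of the weaker genes depends on the length used, as FLCN has 9786 merged exonic bases and 3667 in its longest transcript. Per kilobase of the longest transcript, FLCN (11.1 ± 0.848 CPM per kb) stayed above SESN2 (5.39 ± 0.503) with Y-320, and CASTOR1 (1.55 ± 0.362) above RRAGD (1.08 ± 0.0953 CPM per kb). In untreated cells CASTOR1 (1.54 ± 0.0751 CPM per kb) then lay above SESN1 (1.18 ± 0.194) and DEPTOR (0.873 ± 0.146 CPM per kb). The SESN2 levels above come from its own row alone. With a second row of identical values added, described below, SESN2 stood at 3.81 ± 0.191 untreated and 10.8 ± 1.01 CPM per kb with Y-320. The order of SESN2 and FLCN is therefore uncertain.

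The sestrins are stress-inducible proteins that bind the GATOR2 complex and thereby hold back signaling from amino acids to the Rag GTPases. SESN2, which is also a leucine sensor, lies on chromosome 1 from 28259518 to 28282491 on the plus strand (ENSG00000130766, protein-coding; all positions are from GENCODE 44 on hg38). It measured 6.36, 6.98 and 6.46 CPM in untreated replicates 1, 2 and 3, and 16.9, 18.8 and 20.4 CPM with Y-320. Every treated library was more than 2 times as high as every untreated library. The means were 6.60 ± 0.330 and 18.7 ± 1.74 CPM, a 2.83-fold increase (log2 fold change 1.50, standard error (SE) 0.0873, edgeR adjusted p = 2.51e-07), with a 95% interval of 1.31 to 1.70 on the log2 scale. SESN2 ranked 167 from the top of the 16580 genes tested, and 2.09% of them changed by more in either direction.

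The level of SESN2 is uncertain in its absolute size. A second identifier, ENSG00000285069, which was matched to no gene name, holds the same estimated counts in all 6 libraries (140.5, 145.5 and 142.5 untreated, and 385.5, 410 and 451 with Y-320, equal to within 0.01). Summed, the rows gave whole numbers of counts in every library and 13.2 ± 0.661 CPM untreated against 37.3 ± 3.49 CPM with Y-320. The fold was again 2.83 (log2 fold change 1.50, SE 0.0754, edgeR adjusted p = 8.78e-08). The sum was computed after these values were seen. SESN2 shares none of its 31-base words with another gene of GENCODE 44, an annotation in which the second identifier is not present.

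SESN1 and SESN3 were lower with Y-320. SESN1, a sestrin known as a FOXO target, lies on chromosome 6 from 108984309 to 109094846 on the minus strand (ENSG00000080546). It measured 6.16, 5.99 and 7.97 CPM in untreated cells and 5.08, 5.40 and 4.56 CPM with Y-320. The groups did not overlap, but the highest treated and lowest untreated libraries lay close together. SESN1 fell by 0.42 on the log2 scale (SE 0.134, edgeR adjusted p = 0.0226), from 6.71 ± 1.10 to 5.01 ± 0.425 CPM, with a 95% interval of -0.72 to -0.12. This call was lost without untreated replicate 3 (log2 fold change -0.28, edgeR adjusted p = 0.0954) and without Y-320 replicate 3 (-0.36, edgeR adjusted p = 0.0771).

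SESN3, a FOXO target in other cells, lies on chromosome 11 from 95165513 to 95232541 on the minus strand (ENSG00000149212). It measured 5.93, 5.18 and 7.34 CPM in untreated cells and 3.41, 3.25 and 3.39 CPM with Y-320. The 3 treated values lay within a narrow range below all untreated values. The means were 6.15 ± 1.10 and 3.35 ± 0.0876 CPM (log2 fold change -0.88, SE 0.143, 95% interval -1.20 to -0.56, edgeR adjusted p = 4.80e-04). Both SESN1 and SESN3 were highest in untreated replicate 3, which also had the highest level of the fibroblast marker COL3A1 (4.12, 5.61 and 14.5 CPM in untreated replicates 1, 2 and 3, and 1.75, 7.28 and 1.72 CPM with Y-320). The more abundant fibroblast markers COL1A1 (47.3, 45.9 and 54.9 CPM untreated) and COL1A2 (139, 150 and 155 CPM) were highest there too, but by smaller factors. Among the treated libraries COL3A1 was highest in Y-320 replicate 2, where SESN1 was at its highest (5.40 CPM) and SESN3 at its lowest (3.25 CPM). A link of either gene to these markers was not tested. Without untreated replicate 3, SESN3 remained past the threshold, and its log2 fold change ranged from -0.99 to -0.73 when each library was left out in turn. GENCODE places antisense RNAs over exons of SESN1 and SESN3, and neither antisense gene has a row in the table.

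The changes in opposite directions shifted the make-up of sestrin mRNA. Per kilobase, SESN2 made up 56.6%, 60.5% and 51.0% of the sestrin sum in untreated libraries and 82.7%, 83.8% and 86.1% with Y-320. The shares did not overlap between groups. The mean share went from 56.1 ± 4.78% to 84.2 ± 1.76% (p = 0.1 in a two-sided exact permutation test, the lowest value possible with 3 libraries a group; 0.12 after adjustment over 6 ratios). Without length correction the share was 34.2 ± 4.40% untreated and 69.0 ± 2.74% with Y-320, a log2 change of 1.02 instead of 0.59. The summed sestrin level went from 3.41 ± 0.216 to 6.40 ± 0.470 CPM per kb, 1.88 times as high. With the second row added to SESN2, the share was 71.8 ± 3.95% and 91.4 ± 1.04%, and the sum 5.32 ± 0.219 and 11.8 ± 0.972 CPM per kb, 2.22 times as high.

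**Figure D2:**
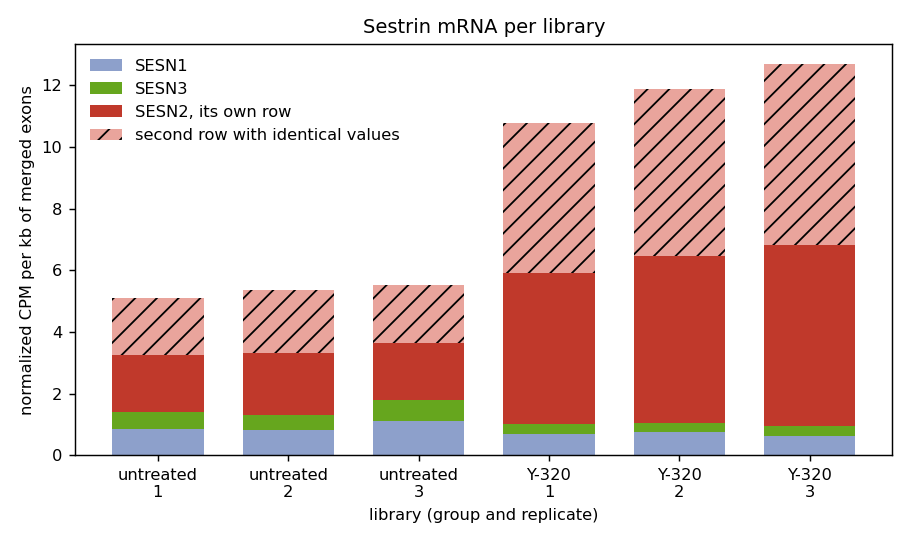
Stacked bars of SESN1, SESN3 and SESN2 in normalized CPM per kb of merged exons for each of the 6 libraries, with the second row that repeats the SESN2 values hatched. With that row the total is 5.08 to 5.52 CPM per kb in the untreated and 10.8 to 12.7 in the Y-320 libraries, and SESN1 and SESN3 shrink while SESN2 grows.

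By Pearson correlation of log2 CPM over the 6 libraries, the genes most like SESN2 among 15073 with a mean of at least 1 CPM were ENSG00000285069 (r = 1.00), STK40 (r = 0.9996) and PPIB (r = 0.9996). STK40 encodes a protein kinase-like protein and PPIB a cyclophilin of the endoplasmic reticulum. Their log2 fold changes were 0.49 and 0.24. The points share the treatment contrast and the libraries, so these coefficients are a description.

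The other 3 genes of the amino acid arm showed an increase in RRAGD, whereas CASTOR1 and FLCN did not pass the threshold. RRAGD encodes a Rag GTPase that pairs with RagA or RagB, and is known as a target of the MiT/TFE transcription factors. It lies on chromosome 6 from 89364616 to 89412273 on the minus strand (ENSG00000025039). RRAGD measured 2.94, 3.21 and 2.18 CPM in untreated cells (65, 67 and 48 counts) and 5.56, 5.63 and 4.78 CPM with Y-320 (127, 123 and 106 counts). All treated values were above all untreated values. The means were 2.78 ± 0.539 and 5.32 ± 0.469 CPM, 1.92-fold higher (log2 fold change 0.94, SE 0.158, 95% interval 0.59 to 1.29, edgeR adjusted p = 5.72e-04). Its close relative RRAGC rose by a log2 fold change of 0.30 (SE 0.0444, edgeR adjusted p = 2.57e-04), and RRAGC shares 26.0% of its 31-base words with other genes. RRAGD made up 9.40%, 9.44% and 7.03% of RRAGC plus RRAGD per kilobase in untreated libraries and 13.2%, 13.8% and 11.7% with Y-320, so the shares did not overlap (means 8.62 ± 1.38% and 12.9 ± 1.09%, exact permutation p = 0.1, adjusted 0.12). Among their partners, RRAGA rose (log2 fold change 0.23, edgeR adjusted p = 4.50e-04) and RRAGB fell (-0.43, edgeR adjusted p = 0.00352).

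CASTOR1, an arginine sensor that binds GATOR2, lies on chromosome 22 from 30285117 to 30289622 on the minus strand (ENSG00000239282). It measured 2.40, 2.33 and 2.18 CPM in untreated cells and 2.86, 2.33 and 1.78 CPM with Y-320. The treated values lay on both sides of the untreated ones. The log2 fold change was 0.00 with a 95% interval of -0.44 to 0.45 (SE 0.198, edgeR adjusted p = 0.988). CASTOR1 shares 42.7% of its 31-base words with other genes, most often with ENSG00000248751. That gene overlaps CASTOR1 on the same strand and measured 0 to 0.708 CPM, so reads may be divided between them. CASTOR2, its relative, had a log2 fold change of -0.32 (edgeR adjusted p = 0.131).

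FLCN encodes folliculin, which with FNIP1 or FNIP2 forms the GTPase-activating complex for RagC and RagD. It lies on chromosome 17 from 17212212 to 17237188 on the minus strand (ENSG00000154803). It measured 39.2, 37.6 and 41.8 CPM in untreated cells and 37.6, 43.8 and 40.7 CPM with Y-320, and the groups overlapped. The log2 fold change was 0.04 (SE 0.0600, edgeR adjusted p = 0.596), with a 95% interval of -0.09 to 0.18. FLCN shares 17.7% of its words with other genes, most often with ENSG00000264187, which overlaps it on the same strand. Its partners FNIP1 (log2 fold change 0.16, edgeR adjusted p = 0.00671) and FNIP2 (0.53, edgeR adjusted p = 8.32e-05) rose. The level of FLCN relative to FNIP1 plus FNIP2 was 0.530, 0.527 and 0.554 in untreated libraries and 0.433, 0.520 and 0.468 with Y-320. All treated ratios lay below all untreated ones, 1 of them narrowly (exact permutation p = 0.1, adjusted 0.12).

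DDIT4, also called REDD1, releases the TSC complex from inhibition and so lowers mTORC1 activity. The gene lies on chromosome 10 from 72273919 to 72276036 on the plus strand (ENSG00000168209). It had 9592, 9128 and 9515 estimated counts in untreated cells and 16033, 17001 and 17422 with Y-320, or 435, 438 and 431 against 702, 778 and 786 CPM. The untreated libraries lay within 1 narrow range and all treated libraries were far above it. The means were 434 ± 3.31 and 755 ± 46.6 CPM, 1.74-fold higher (log2 fold change 0.80, SE 0.0389, 95% interval 0.71 to 0.89, edgeR adjusted p = 7.11e-08). DDIT4 ranked 684 from the top. Its paralog DDIT4L was at 5 to 11 counts per library, 0.357 ± 0.154 CPM untreated and 0.300 ± 0.0321 CPM with Y-320, and was too low to be tested.

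The 250 bases before the transcription start are printed for SESN2 and DDIT4, the genes with increased mRNA that have a promoter in the RefSeq table used (GRCh38.p14). They run 5′ to 3′ on the plus strand, at chr1:28259268-28259517 for SESN2 and chr10:72273674-72273923 for DDIT4. Positions are counted from the RefSeq start, which for DDIT4 differs from the GENCODE start at 72273919. The last bases printed for DDIT4 therefore lie inside the GENCODE gene. Capitals mark ACGTG, the core of the hypoxia response element.
SESN2: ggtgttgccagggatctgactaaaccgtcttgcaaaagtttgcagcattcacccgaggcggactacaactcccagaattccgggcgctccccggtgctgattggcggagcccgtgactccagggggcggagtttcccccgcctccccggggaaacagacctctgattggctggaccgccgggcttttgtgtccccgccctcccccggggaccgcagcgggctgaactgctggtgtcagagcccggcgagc
DDIT4: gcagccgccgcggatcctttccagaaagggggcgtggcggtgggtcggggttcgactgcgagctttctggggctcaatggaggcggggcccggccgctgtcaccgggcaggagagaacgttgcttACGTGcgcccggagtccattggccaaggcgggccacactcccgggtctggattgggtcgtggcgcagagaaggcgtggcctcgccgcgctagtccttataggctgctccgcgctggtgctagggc
Windows from 250 bases before to 50 after the start were found for 7 of the 10 genes, 9 windows in all; RRAGD, EIF4EBP1 and DEPTOR had none. Both strands were searched for TGATGNAA (core of the C/EBP-ATF response element, bound by ATF4), TGACGTCA (cAMP response element), ACGTG (the hypoxia core above), CACGTG (E-box of the CLEAR type bound by MiT/TFE factors, which contains ACGTG) and GTAAACA (forkhead element). These letters occur in 3.62%, 1.85%, 21.4%, 7.26% and 3.42% of all 35116 windows, respectively. In the windows of the 7 genes there was 1 match, ACGTG in DDIT4, whose first base lies at position -125 from the start. The other sequences searched are not in these windows, and a match is not evidence of a binding site.

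DEPTOR encodes a protein that binds mTOR and restrains both of its complexes. It lies on chromosome 8 from 119873717 to 120050918 on the plus strand (ENSG00000155792), and its antisense gene has no row in the table. DEPTOR measured 1.99, 2.06 and 2.67 CPM in untreated cells and 1.58, 2.61 and 1.58 CPM with Y-320. The groups overlapped, with 2 treated libraries below all untreated ones and Y-320 replicate 2 near the highest. The log2 fold change was -0.23 (SE 0.238, edgeR adjusted p = 0.463). It ranged from -0.08 without untreated replicate 3 (-0.10 without Y-320 replicate 1 and also without Y-320 replicate 3) to -0.51 without Y-320 replicate 2 (edgeR adjusted p = 0.0934). Its 95% interval of -0.76 to 0.30 is wide, and the gene had 35 to 59 counts per library. The libraries with most DEPTOR in each group were untreated replicate 3 and Y-320 replicate 2. Of the 6 fibroblast markers, COL3A1 (14.5 and 7.28 CPM), DCN (2.36 and 1.36 CPM), PDGFRA, COL1A1 and COL1A2 were also highest there. For COL1A1 the margin was smaller (47.3, 45.9 and 54.9 CPM untreated, and 27.2, 34.5 and 29.8 CPM with Y-320). PDGFRB was also highest in untreated replicate 3, but among treated libraries in Y-320 replicate 1 (3.98, 3.11 and 2.84 CPM). The part of these markers in the DEPTOR values was not tested. The ratio of DEPTOR to MTOR per kilobase was 0.103 ± 0.0158 untreated and 0.0769 ± 0.0248 with Y-320, with overlapping groups (exact permutation p = 0.3, adjusted 0.3).

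EIF4EBP1 encodes 4E-BP1, the best studied translational repressor under mTORC1, and is a known ATF4 target. It lies on chromosome 8 from 38030534 to 38060365 on the plus strand (ENSG00000187840). It measured 33.7, 35.5 and 33.5 CPM in untreated cells and 60.97, 62.93 and 60.02 CPM with Y-320. Both groups were tight and far apart. The means were 34.2 ± 1.14 and 61.3 ± 1.49 CPM, 1.79-fold higher (log2 fold change 0.84, SE 0.0387, 95% interval 0.76 to 0.93, edgeR adjusted p = 4.86e-08). EIF4EBP1 ranked 621 from the top of the genes tested.

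EIF4EBP2, which encodes the related repressor 4E-BP2, lies on chromosome 10 from 70404145 to 70428618 on the plus strand (ENSG00000148730). It measured 200.4, 190.1 and 194 CPM in untreated cells and 192, 191 and 195 CPM with Y-320, and the groups overlapped. The log2 fold change was -0.02 (SE 0.0275, edgeR adjusted p = 0.665), and the 95% interval of -0.08 to 0.05 was the narrowest of the 10 genes. The third gene of the family, EIF4EBP3, was at 0.662 ± 0.0439 CPM untreated and 0.486 ± 0.0874 CPM with Y-320 (log2 fold change -0.46, edgeR adjusted p = 0.240). Of its words, 72.4% also occur in other genes, most often in the readthrough gene with its neighbor ANKHD1.

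EIF4E, the cap-binding partner of the 4E-BPs, fell by 0.17 on the log2 scale (SE 0.0467, edgeR adjusted p = 0.0131), and 19.0% of its words occur in other genes. Per kilobase, EIF4EBP1 plus EIF4EBP2 stood at 6.004, 6.58 and 6.51 times EIF4E in untreated libraries and 10.8, 10.7 and 9.98 times with Y-320. The ratios did not overlap (means 6.37 ± 0.315 and 10.5 ± 0.443, exact permutation p = 0.1, adjusted 0.12). EIF4EBP1 made up 59.9 ± 1.32% of the pair untreated and 73.0 ± 0.669% with Y-320, again without overlap (exact permutation p = 0.1, adjusted 0.12). These ratios are of mRNA and depend on the gene lengths used. Without length correction the log2 change of the ratio to EIF4E was 0.31 instead of 0.72, and that of the EIF4EBP1 share 0.69 instead of 0.29.

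**Figure D3:**
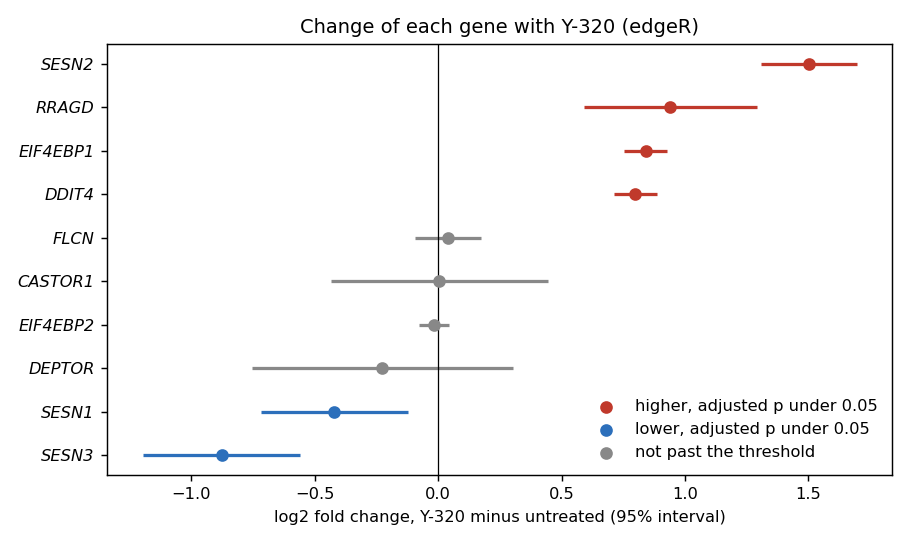
Log2 fold change of each of the 10 genes, Y-320 minus untreated, from edgeR, with points for estimates, lines for 95% intervals and colors for the call. The order runs from SESN3 at -0.88 to SESN2 at 1.50, and the intervals of DEPTOR, EIF4EBP2, CASTOR1 and FLCN include 0.

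The called changes in the mTOR complexes themselves were small. Of 11 other genes of mTORC1, mTORC2 and their assembly factors, 3 were higher and 2 lower, with a median log2 fold change of 0.07. For this list and those below, the shares over all genes tested were 26.2% higher and 25.4% lower. All lists were chosen with earlier results of these data known, so counts set beside these shares are a description. The higher genes were AKT1S1, which encodes the inhibitory subunit PRAS40 (0.24, edgeR adjusted p = 2.81e-04), the kinase gene MTOR (0.21, 1.90e-04) and MLST8, a subunit of both complexes (0.16, 0.0211). TELO2, an assembly factor, fell by 0.12 on the log2 scale (edgeR adjusted p = 0.0326). No gene of this list was lower with DESeq2, or without untreated replicate 1 or 2 or Y-320 replicate 3, and 1 was lower without Y-320 replicate 1 or 2. RPTOR, the subunit that defines mTORC1, had a log2 fold change of -0.04 (edgeR adjusted p = 0.450).

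Of 27 other genes of the amino acid and Rag GTPase arm, 12 were higher and 7 lower, with a median of 0.05. Genes of the GATOR complexes, through which sestrins and CASTOR1 act, moved in both directions. NPRL2, a subunit of GATOR1, went from 11.3 ± 0.730 to 25.3 ± 1.51 CPM (log2 fold change 1.16, SE 0.0677, edgeR adjusted p = 2.61e-07). SEC13, shared by GATOR2, the nuclear pore and COPII coats, went from 120.1 ± 2.97 to 247 ± 6.97 CPM (1.04, SE 0.0308, edgeR adjusted p = 2.71e-09). WDR24, a GATOR2 subunit with 33.6% of its words shared with other genes, rose by a log2 fold change of 0.63 (edgeR adjusted p = 3.94e-06). The other GATOR2 genes did not rise: SEH1L (-0.29, edgeR adjusted p = 1.42e-04) and WDR59 (-0.22, edgeR adjusted p = 0.00115) fell, and MIOS had a log2 fold change of -0.01 (edgeR adjusted p = 0.855). The other GATOR1 genes, NPRL3 (0.02, edgeR adjusted p = 0.852) and DEPDC5 (-0.15, 0.0666), did not pass the threshold.

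In the growth factor, energy and TSC arm, on which DDIT4 acts, 24 of 25 genes were tested, 7 were higher and 7 lower, with a median of 0.03. Without untreated replicate 2 or Y-320 replicate 3, 4 were higher. The TSC genes were close to level, with log2 fold changes of -0.03 for TSC1 (edgeR adjusted p = 0.583) and 0.02 for TSC2 (0.631), and RHEB, the GTPase they inhibit, at 0.00 (0.914). IRS1, an adaptor of the insulin receptor, fell by 1.14 on the log2 scale (SE 0.0456, edgeR adjusted p = 1.88e-08), from 77.2 ± 1.14 to 35.0 ± 2.38 CPM. IGF1R also fell (-0.53, edgeR adjusted p = 4.13e-06), while the related adaptor IRS2 rose (0.44, edgeR adjusted p = 2.66e-06). RHEBL1, a relative of RHEB, rose from 2.13 ± 0.402 to 3.16 ± 0.398 CPM (0.57, edgeR adjusted p = 0.0272).

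Among 16 other genes downstream of mTORC1, 5 were higher and 6 lower, with a median of -0.04. ULK1, the autophagy kinase that mTORC1 inhibits, rose from 47.6 ± 0.602 to 78.7 ± 3.85 CPM (log2 fold change 0.73, edgeR adjusted p = 2.05e-07), and so did its partner ATG13 (0.38, edgeR adjusted p = 3.43e-06). GRB10, an adaptor that dampens insulin signaling, rose (0.53, edgeR adjusted p = 4.65e-05), and LPIN1, a phosphatidate phosphatase, fell (-0.56, edgeR adjusted p = 1.12e-06). RPS6KB1, which encodes S6 kinase 1, had a log2 fold change of 0.02 (edgeR adjusted p = 0.767).

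Transcription factors known to act on some of the 10 genes, and factors of the same families, were also read. Of 21, 13 were higher and 6 lower, with a median of 0.20, against 26.2% higher and 25.4% lower of all genes tested. This list was also chosen with earlier results of these data known, so the contrast is only a description. ATF4, a factor of the amino acid and unfolded protein stress responses, went from 211 ± 2.86 to 449 ± 8.64 CPM (log2 fold change 1.09, SE 0.0247, edgeR adjusted p = 7.52e-10). ATF3 rose by 2.36 (edgeR adjusted p = 5.14e-09), DDIT3 by 1.78 (1.01e-08) and NUPR1 by 1.32 (4.25e-06) on the log2 scale. ATF4, DDIT3 and NUPR1 share 26.4%, 28.9% and 31.3% of their words with other genes, while ATF3 shares none. Of the MiT/TFE factors, TFEB (-0.50, edgeR adjusted p = 0.00336) and MITF (-0.25, edgeR adjusted p = 0.00147) fell and TFE3 rose (0.20, edgeR adjusted p = 0.00393). Of the FOXO factors, FOXO3 (0.29, edgeR adjusted p = 1.56e-05) and FOXO4 (0.38, edgeR adjusted p = 6.40e-04) rose, and FOXO1 did not pass the threshold (0.06, edgeR adjusted p = 0.379). The hypoxia factors HIF1A (-0.34, edgeR adjusted p = 3.09e-05) and EPAS1 (-0.42, edgeR adjusted p = 3.50e-06) fell, and their partner ARNT rose (0.19, edgeR adjusted p = 0.00285).

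Target genes of the MiT/TFE factors moved in both directions. Of 18 MiT/TFE target genes, 8 were higher and 3 lower, with a median of 0.03, against 26.2% higher and 25.4% lower of all genes tested. The 3 lower genes were CTSD (-0.25, edgeR adjusted p = 2.92e-05), ATP6V1A (-0.24, edgeR adjusted p = 2.06e-04) and ATP6V1H (-0.16, edgeR adjusted p = 0.00842). WIPI1 (1.02, edgeR adjusted p = 7.14e-08) and SQSTM1 (0.87, edgeR adjusted p = 2.71e-09), both of autophagy, and the sialidase gene NEU1 (0.45, edgeR adjusted p = 2.39e-04) rose. WIPI1 and SQSTM1 share 30.97% and 24.2% of their words with other genes, and 3 other identifiers hold the same values as NEU1. This list also holds FNIP1, FNIP2 and RRAGC.

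**Figure D4:**
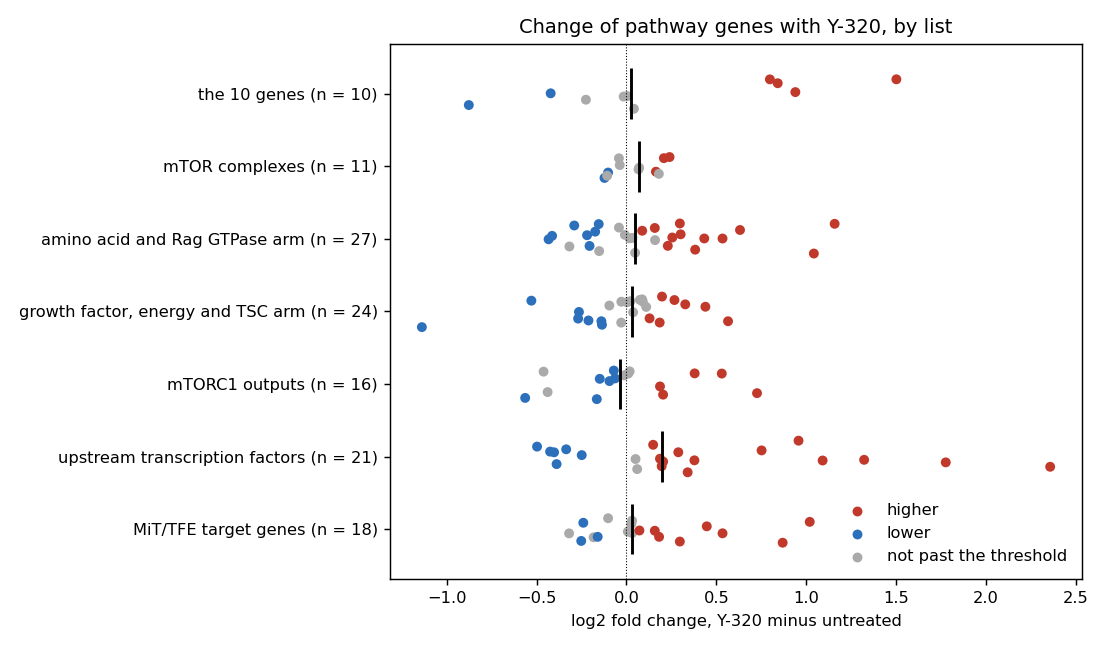
Log2 fold change, Y-320 minus untreated, of every tested gene in each list, with 1 point per gene colored by its call, vertical jitter for legibility and a black line at the list's median. All 6 lists shown and the 10 genes hold points on both sides of 0, with medians from -0.04 to 0.20.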

How the data were processed

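RNA-seq libraries of HDQ-P1 cells, 3 untreated and 3 treated with Y-320, were prepared and sequenced by the authors on an Illumina instrument. The authors deposited 1 table of estimated counts per gene, not normalized, made with kallisto 0.46.1 according to the submitters' processing notes, which also name hg38. The Ensembl release is not given in the sources used here. kallisto divides reads that fit several transcripts, so 70.4% of the nonzero values were not whole (to within 0.001), and counts of genes with near-identical or overlapping copies are uncertain. The methods describe combined pipelines that could not be repeated from the counts.

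Estimated counts were rounded before fitting, and 35390 of 40295 identifiers were matched to gene names. edgeR 4.0.16 in R 4.3.3 was used with filterByExpr (minimum count 10, total 15), TMM scaling and the quasi-likelihood test without a block, with Benjamini-Hochberg adjustment at 0.05. The script was tested on simulated data. Depth was 21045401 to 22740535 counts per library, and chi-square over its degrees of freedom was 2.02 to 2.98 between replicate libraries and 40.2 to 42.1 between groups, where sampling noise alone gives about 1. Levels were divided by merged exon lengths of GENCODE 44, and the share of 31-base words found in other genes was counted in its transcripts. Ratios were compared by two-sided exact permutation tests over libraries, with adjustment over 6 ratios. Standard errors were computed as the absolute log2 fold change over the square root of edgeR's F statistic. The 95% intervals used these with a t quantile at 10.02 degrees of freedom. Promoter windows came from a RefSeq table of GRCh38.p14. Tables, tests of ratios and plots used Python 3.11.15 with matplotlib 3.10.9, scipy 1.17.1, pandas 2.3.3 and numpy 2.4.6. Alternatives were other filters, scalings and thresholds, DESeq2 1.42.0, limma-voom (limma 3.58.1), unrounded counts, a replicate block, leaving out each library, no length correction and, added after seeing the data, summing identical rows and lengths of the longest transcripts.

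The 10 genes and all lists were chosen with earlier results of these data known. Named were the 10 genes, their direct partners, up to 4 called genes per list with the largest absolute log2 fold change at a mean of at least 1 CPM, and the 3 genes most like SESN2 by Pearson r. Cell type markers are also named. After their values were seen, SEH1L, WDR59, MIOS, MITF, FOXO1, FOXO3, FOXO4, HIF1A, EPAS1, ARNT, CTSD, ATP6V1A and ATP6V1H were named. The protein, readthrough and imaging measurements of the study were not analysed here. Some named genes and 1 list are not reported here, although list counts include such genes.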

Additional observations from a re-analysis of the deposited data

How the results depend on the processing

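The directions and calls of SESN2, SESN3, DDIT4, EIF4EBP1 and RRAGD held under all 16 alternatives run for each gene, with log2 fold changes of 1.44 to 1.57, -0.99 to -0.73, 0.77 to 0.85, 0.81 to 0.87 and 0.79 to 1.05. DEPTOR, CASTOR1, EIF4EBP2 and FLCN passed the threshold under none of theirs, and the estimates of the last 3 took both signs. The number of the 10 genes that were lower ranged from 1 to 2 when each library was left out and was 1 at an adjusted p under 0.01, SESN1 being the gene lost. In the mTOR complexes the number lower was 0 without the filter, with library size alone, with DESeq2 and at 0.01, 1 with limma-voom, and 0 to 2 when each library was left out. In the growth factor, energy and TSC arm the number higher was 4 at 0.01 and 4 to 7 when each library was left out, the lowest without untreated replicate 2 and without Y-320 replicate 3. Among mTORC1 outputs 3 genes were lower at 0.01. The causes were not tested, apart from the stricter threshold itself. Without length correction, the log2 change was 1.02 for the SESN2 share of sestrins, 0.31 for EIF4EBP1 plus EIF4EBP2 to EIF4E and 0.69 for the EIF4EBP1 share. With identical rows summed, the SESN2 share changed by 0.35.

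The replicate numbers showed no shared effect: deviations from the group means correlated at -0.0329, 0.0247 and -0.00229 for numbers 1, 2 and 3. Between libraries of different numbers they correlated at -0.0551 to 0.0551. These values cannot show whether the libraries were paired in the experiment. With a replicate block, 4 of the 10 genes were higher and 2 lower, as without it, and EIF4EBP1 had a log2 fold change of 0.84. DEPTOR, at 35 to 59 counts per library, and the other weakly expressed genes rest on few counts.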
